A study of Mus musculus with 6 samples.

Results

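The protein-coding genes whose symbols begin with *Eif* or *Eef*, the eukaryotic translation initiation and elongation factors with their direct regulators, were examined in RNA-seq data from *Shank3* TG and WT mice, taken from the medial prefrontal cortex (mPFC). GENCODE release M21 lists 69 such genes, 68 of them had a row in the deposited table of 18254 genes, and all 68 passed the filter on low values that left 16714 genes for testing. *Eef1akmt4* was not analysed here, and 2 rows of pseudogenes, *Eif1-ps1* and *Eif4a-ps4*, were not counted as members. The study sequenced 6 libraries, 3 from WT mice and 3 from Shank3 transgenic (TG) mice, which carry an EGFP-*Shank3* transgene in addition to their own *Shank3*. All mice were 10- to 12-week-old males on a C57BL/6J background, and each library pooled the mPFC of 2 mice. The promoter and the copy number of the transgene are not given in the sources used here. The labels number the replicates 1 to 3 in each genotype, and p-values measure the spread between these pooled samples, part of which may be technical.

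Initiation factors bring the initiator tRNA, the mRNA and the small ribosomal subunit together at a start codon. eIF2 carries the initiator tRNA, eIF3 holds the small subunit, eIF4F binds the cap and unwinds the leader, and eIF5B joins the large subunit, after which eEF1 delivers aminoacyl-tRNAs and eEF2 moves the ribosome along the mRNA. Phosphorylation of eIF2 by its kinases, sequestration of eIF4E by the eIF4E-binding proteins and phosphorylation of eEF2 by eEF2K set the rate of protein synthesis, and in neurons these steps are known for their part in synaptic plasticity. They act on proteins, so that the mRNA levels described here do not measure them.

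The deposited values are normalized counts, that is, estimated read counts divided by a factor for each library, and they summed to between 28363967 and 29447717 per library. *Shank3*, which checks the labels, was at 17470, 19004 and 16310 normalized counts in TG-1 to TG-3 and at 8374, 8173 and 6791 in WT-1 to WT-3. Its log2 fold change was 1.18 ± 0.10 (SE), with an adjusted p of 0.0643 in limma with genotype alone and 0.000437 when the replicate number entered as a block. The 8 excitatory neuron markers summed to between 163157 and 195419 normalized counts in a library and none of the 8 was at 0 in all libraries. The 10 oligodendrocyte markers summed to 76693–99468 in TG and 113998–116140 in WT libraries. The 2 libraries numbered 3 stood apart from the other 4, with mitochondrially encoded transcripts at 9.87% (TG-3) and 11.3% (WT-3) of all normalized counts against 8.75–9.24%. Its part in any result below was not tested, and values without these libraries are given where they matter.

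Together the 68 genes made up 0.949%, 0.953% and 0.869% of the normalized counts of TG-1 to TG-3, and 0.967%, 0.948% and 0.854% of those of WT-1 to WT-3. The share was lowest in the library numbered 3 of either genotype and overlapped between genotypes. In these bulk samples, fewer cells of a type and less RNA per cell cannot be told apart. *Eef1a1*, *Eef1a2* and *Eef2* alone held between 35.2% and 39.7% of the members' counts. Per kb of annotated exon, *Eef1a1* (ENSMUSG00000037742, chr9:78478449-78489151, GRCm38), the general carrier of aminoacyl-tRNA, ranked first with a mean of 17613 normalized counts over the 6 libraries. Next came *Eef1a2* (ENSMUSG00000016349, chr2:181147653-181157014), its paralogue of neurons and muscle, with 12987, and *Eef2* (ENSMUSG00000034994, chr10:81176631-81182498), the translocase, with 8794. *Eif1*, which guards start codon fidelity, had 2768 per kb, *Eif4a2*, a helicase of eIF4F, 2670, and *Eif5a*, the hypusine-bearing factor that helps the ribosome past difficult peptide bonds, 2593. The ranges of these 3 over the libraries overlapped, so that their order is not distinguished. At the other end were *Eef1akmt3*, a methyltransferase of eEF1A, with 8.14 per kb, *Eif4e1b*, a relative of eIF4E known from oocytes, with 21.3, and *Eef2kmt*, a methyltransferase of eEF2, with 39.7. The order depends on the length by which counts are divided. With the length of the principal transcript in place of all exon bases, an alternative chosen after the data were seen, *Eef1a1* stayed first with 24475 per kb, but *Eif4g2*, an eIF4G relative without the eIF4E-binding part, moved from position 9 to position 2, because its principal transcript in the annotation has 742 bases against 10166 bases of exon.

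**Figure D1:**
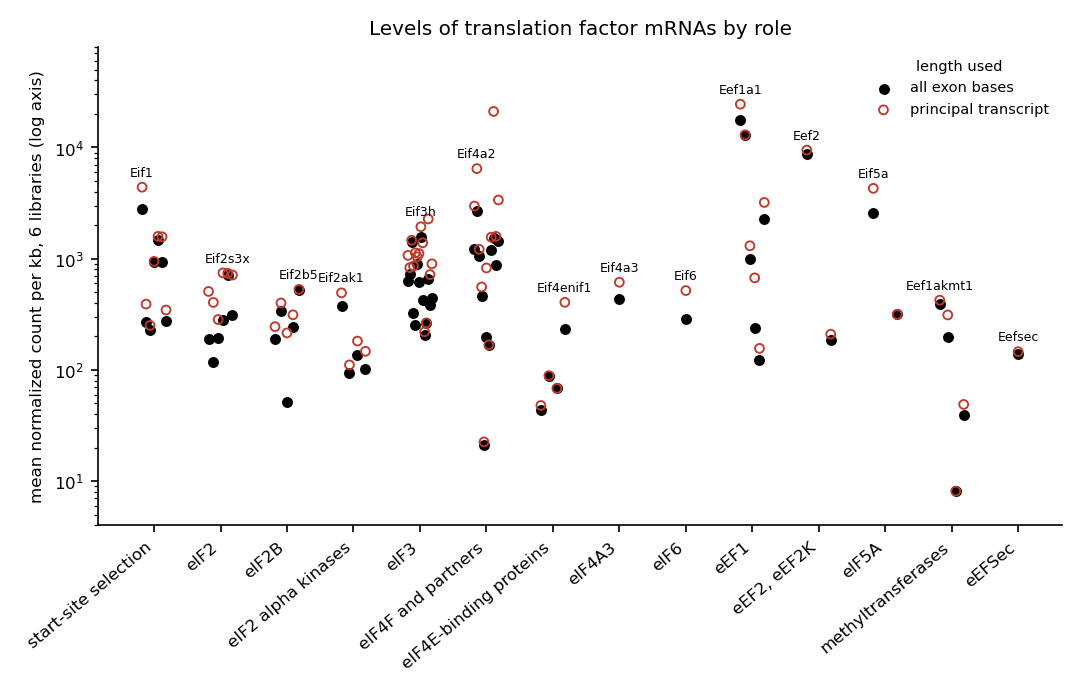
Mean normalized count per kb over the 6 libraries on a log axis, for the 68 genes grouped by role, with counts divided by all annotated exon bases (filled) or by the principal transcript (open). *Eef1a1*, *Eef1a2* and *Eef2* are the highest 3 genes by exon length, and the gene highest by exon length in each group is named.

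Between genotypes, the translation factor mRNAs differed little. Of the 68 genes, 27 were higher and 41 lower in TG, and the median log2 fold change was -0.015 against -0.0037 over all 16714 tested genes. The split turned when 1 library was left out, to 37 higher and 31 lower without TG-3 (median 0.011) and to 35 and 33 without WT-1 (median 0.00098). The median size of the change without regard to sign was 0.0359 for the members and 0.0706 for all tested genes. A change under 0.1 on the log2 scale was found for 59 members (86.8%, against 62.0% of all tested genes), and one under 0.2 for 65 (95.6%, against 80.9%). The members were also more abundant than most genes, with a median of 1490 normalized counts against 488 over all tested genes, and the median SE of their changes was 0.102 against 0.132. limma with genotype alone called 0 members at an adjusted p under 0.05, as it called 0% of all tested genes, and the smallest adjusted p of a member was 1.00. The blocked fit also called 0 members and 0.00598% of all genes, which is *Shank3* alone, and the smallest adjusted p of a member was 0.789. When the test statistics were rescaled to their own width (an empirical null), 0.156% of all genes and 0 members were called, with a smallest adjusted p of 0.365 among members. At an unadjusted p under 0.05 in limma, 0 members were higher in TG (0.933% of all genes) and 1 was lower (1.47%, against 1.08%). With the block, 0 members were higher (2.33% of all genes) and 1, the same gene, was lower (2.66%).

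The 95% intervals of the fits, taken gene by gene, bound the size of these differences. With genotype alone, the interval lay within a log2 change of 0.25 either way for 26 of the 68 members, within 0.5 for 59 and within 1 for 66. With the block, these counts were 51, 64 and 66. With genotype alone, the narrowest belonged to *Eef1g*, the eEF1 subunit that holds the exchange complex together, from -0.14 to 0.15. Next came those of *Eif4a1*, a helicase of eIF4F, from -0.14 to 0.16, and of *Eif4g1*, its scaffold, from -0.19 to 0.10. The widest belonged to the rare transcripts *Eif4ebp3* (-0.76 to 1.77) and *Eef1akmt3* (-0.93 to 0.88). *Eef1g* and *Eef1akmt3* are named after their values were seen.

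**Figure D2:**
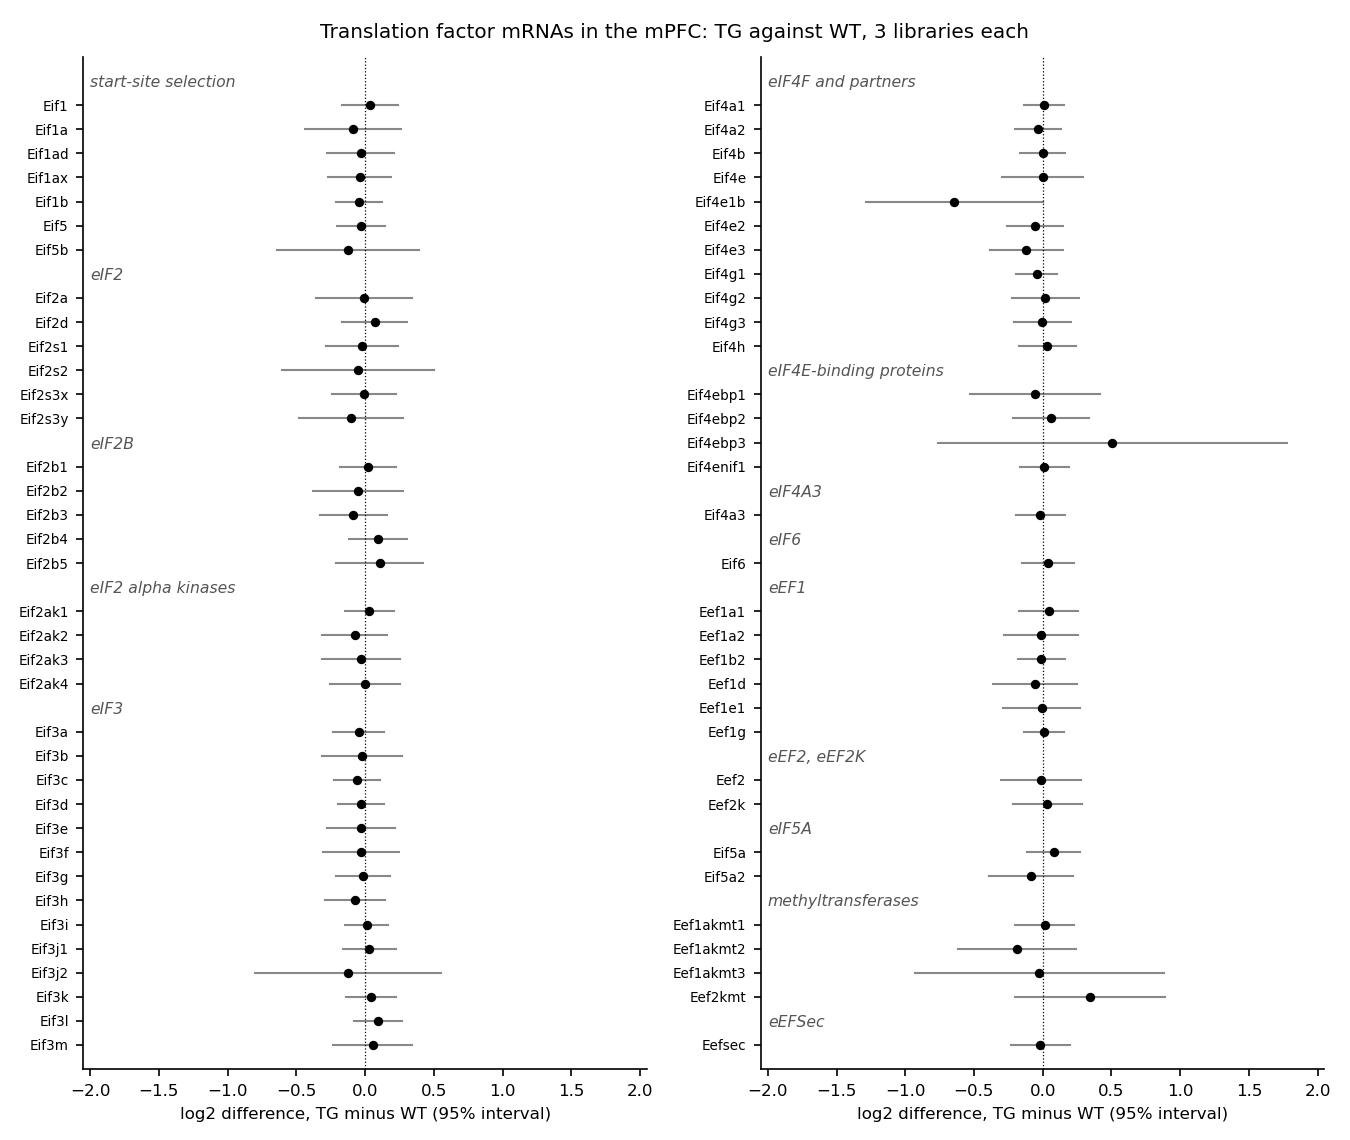
Log2 fold change of each of the 68 genes, TG minus WT, with its 95% interval from limma (3 libraries per genotype), grouped by role. Nearly all points lie within 0.2 of zero, and *Eif4e1b* is the 1 gene whose interval leaves out zero.

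The gene with the unadjusted p under 0.05 was *Eif4e1b* (ENSMUSG00000074895, chr13:54783998-54788459). It was at 30.4, 31.0 and 51.5 normalized counts in TG-1 to TG-3 and at 45.8, 58.7 and 70.6 in WT-1 to WT-3. TG was lower than WT at each replicate number, but TG-3 lay above WT-1, so that the genotypes overlapped. The log2 fold change was -0.64 ± 0.28 (SE), with an unadjusted p of 0.0496 and an adjusted p of 1.00 in limma, and an adjusted p of 0.789 with the block. Leaving out 1 library at a time moved it between -0.88 (without TG-3) and -0.50 (without WT-3), and without both libraries numbered 3 it was -0.74. *Eif3l* (ENSMUSG00000033047, chr15:79075179-79094405), a subunit of eIF3, was the 1 member whose TG libraries all lay above its WT libraries. It was at 1450, 1434 and 1438 normalized counts in TG and at 1406, 1386 and 1263 in WT. The TG libraries lay close together and the lowest of them exceeded the highest WT library by little. The log2 fold change was 0.09 ± 0.08 (SE), with an adjusted p of 1.00, and 0.05 without WT-3. Non-overlap upward was found in 1.47% of members against 2.91% of all tested genes, and downward in 0 members against 3.12%. At each of the 3 replicate numbers, TG was above WT for 5 members (7.35%, against 11.6% of all tested genes) and below it for 8 (11.8%, against 13.2%).

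Among the factors of start-site selection, 1 of 7 was higher and 6 were lower in TG, with 0 at an unadjusted p under 0.05 and a median of -0.041 on the log2 scale. *Eif1* was at 6383, 5874 and 5388 normalized counts in TG-1 to TG-3 and at 5816, 6065 and 5318 in WT-1 to WT-3. Its paralogue *Eif1b* was at 1590, 1656 and 1605 in TG and at 1643, 1760 and 1606 in WT. Both genes overlapped between genotypes, and *Eif1* was lowest in TG-3 and WT-3. The log2 fold changes were 0.04 ± 0.09 and -0.05 ± 0.07 (SE), with adjusted p-values of 1.00 in limma.

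The 6 genes grouped with eIF2 had a median of -0.019, and 1 was higher in TG. They include 2 factors that bring tRNA to the ribosome outside the trimeric complex, *Eif2a* and *Eif2d*. The gamma subunit, which binds the initiator tRNA, is encoded on both sex chromosomes. *Eif2s3x* was at 2888, 2742 and 2421 normalized counts in TG and at 2776, 2910 and 2427 in WT, and the Y-linked *Eif2s3y* at 1392, 1453 and 967 in TG and 1398, 1451 and 1195 in WT. For both copies the library numbered 3 was the lowest of its genotype, and the first 2 libraries were alike in TG and WT. The log2 fold changes were -0.011 ± 0.10 and -0.10 ± 0.16 (SE), and that of *Eif2s3y* was -0.0020 without both libraries numbered 3. Reads of such near-identical copies may be divided between them by the authors' quantification, which holds also for *Eif1a* with *Eif1ax*, *Eif3j1* with *Eif3j2* and *Eef1a1* with its processed pseudogenes.

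For eIF2B, which reloads eIF2 with GTP and is blocked by phosphorylated eIF2, 3 of the 5 subunits were higher and 2 lower in TG, with a median of 0.02. *Eif2b5*, the catalytic epsilon subunit, was at 1435, 1480 and 1277 normalized counts in TG and at 1486, 1389 and 1051 in WT. *Eif2b2*, the beta subunit, was at 696, 635 and 555 in TG and at 782, 607 and 574 in WT. WT-3 was low for *Eif2b5*, and its log2 fold change of 0.11 ± 0.14 (SE) became -0.043 without that library. *Eif2b2* gave -0.05 ± 0.14.

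The 4 kinases of eIF2 alpha answer to different stresses, and none of their mRNAs passed the test in either fit. *Eif2ak1* (HRI, the heme-regulated kinase) was at 2144, 2056 and 2262 normalized counts in TG and 2080, 2238 and 2017 in WT, or 0.03 ± 0.08 (SE) on the log2 scale. *Eif2ak2* (PKR, which senses double-stranded RNA) was at 446, 491 and 459 in TG and 443, 506 and 526 in WT, or -0.08 ± 0.10. *Eif2ak3* (PERK, the kinase of the endoplasmic reticulum) was at 883, 853 and 699 in TG and 840, 910 and 732 in WT, or -0.03 ± 0.12. *Eif2ak3* was thus lowest in both libraries numbered 3, whereas the other kinases showed no such low pair. *Eif2ak4* (GCN2, which senses uncharged tRNA) was at 713, 805 and 777 in TG and 727, 697 and 876 in WT, or 0.0020 ± 0.11. All 4 intervals lay within a log2 change of 0.32.

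In eIF3, 5 of 14 subunit genes were higher and 9 lower in TG, with a median of -0.027 and changes between -0.13 and 0.09. The 2 most abundant per kb of exon were *Eif3h* and *Eif3c*, while *Eif3k* was first by principal transcript. *Eif3h* was at 2405, 2301 and 2617 normalized counts in TG and 2756, 2305 and 2665 in WT, and *Eif3c*, part of the core of eIF3, at 4678, 4742 and 5125 in TG and 4804, 5118 and 5249 in WT. In TG both were below WT at each replicate number, with log2 fold changes of -0.08 ± 0.09 and -0.06 ± 0.07 (SE) and adjusted p-values of 1.00 in limma.

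The eIF4F group of 11 genes had a median of -0.0040, with 5 higher and 6 lower in TG. *Eif4a2* was at 14623, 13401 and 14198 normalized counts in TG and 13773, 14933 and 14583 in WT, and *Eif4a1* at 5342, 5235 and 5284 in TG and 5272, 5407 and 5083 in WT. Neither helicase mRNA separated the genotypes, and neither was set apart in the libraries numbered 3. *Eif4g1*, the scaffold of eIF4F, gave a log2 fold change of -0.04 ± 0.06 (SE), *Eif4g2* 0.02 ± 0.10 and *Eif4g3*, a second scaffold, -0.0040 ± 0.09. *Eif4e*, which binds the cap, was at 2975, 2908 and 2439 in TG and 2858, 3141 and 2345 in WT, with a log2 fold change of 0.0012 ± 0.13. Its relative *Eif4e2*, known as a repressor at the cap, was at 1561, 1483 and 1347 in TG and 1581, 1571 and 1407 in WT, or -0.05 ± 0.09. These 2 were both lowest in TG-3 and WT-3, whereas the relative *Eif4e3*, named after its values were seen, was higher there than in the other 4 libraries, at 386, 377 and 451 in TG and 411, 422 and 485 in WT, and *Eif4e1b* was highest there within each genotype.

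Of the 4 genes grouped as eIF4E-binding proteins, 3 were higher and 1 lower in TG. *Eif4ebp1* was at 86.2, 84.8 and 109 normalized counts in TG and 94.3, 77.9 and 121 in WT, and *Eif4ebp2*, the form best known in brain, at 473, 495 and 609 in TG and 503, 469 and 533 in WT. Both stood highest in the libraries numbered 3, and their log2 fold changes were -0.05 ± 0.20 and 0.06 ± 0.12 (SE). *Eif4ebp3* was at 51.8, 47.0 and 66.4 in TG and 64.7, 13.7 and 60.9 in WT. WT-2 was low for this rare transcript, and the log2 fold change of 0.51 ± 0.55 was -0.20 without that library. *Eif4enif1* (4E-T), which brings eIF4E to the nucleus and to processing bodies, gave 0.01 ± 0.08. *Eif4a3*, the helicase of the exon junction complex, and *Eif6*, which keeps the large subunit from joining too early, gave -0.02 ± 0.08 and 0.04 ± 0.08.

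The elongation factors overlapped between genotypes as well. *Eef1a1* was at 47013, 46540 and 40222 normalized counts in TG-1 to TG-3 and at 45049, 44169 and 40459 in WT-1 to WT-3. *Eef1a2* was at 28362, 27854 and 24381 in TG and at 29861, 28833 and 23105 in WT. *Eef2* was at 30334, 30702 and 26041 in TG and at 34106, 29141 and 25058 in WT. All 3 were lowest in TG-3 and WT-3. The log2 fold changes were 0.04 ± 0.09, -0.016 ± 0.12 and -0.013 ± 0.13 (SE), with adjusted p-values of 1.00 in limma. *Eef2k*, the calcium-dependent kinase of eEF2, was at 1475, 1495 and 1216 in TG and 1399, 1450 and 1237 in WT, or 0.03 ± 0.11, and followed the same course. *Eif5a* was at 6668, 6319 and 6002 in TG and 6514, 5904 and 5567 in WT, with TG above WT at each number and a log2 fold change of 0.08 ± 0.08. *Eif5a2*, its second form, gave -0.09 ± 0.13.

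Among the methyltransferases of elongation factors, *Eef1akmt2* was at 317, 377 and 272 normalized counts in TG and 388, 435 and 284 in WT, or -0.19 ± 0.19 (SE), which ran from -0.36 without WT-3 to -0.056 without WT-2. *Eef1akmt1* gave 0.02 ± 0.09, and *Eefsec*, which delivers selenocysteine, -0.019 ± 0.09. *Eef2kmt*, named after its values were seen, was at 117, 93.6 and 145 in TG and 72.6, 88.8 and 120 in WT. TG was above WT at each number, with a log2 fold change of 0.34 ± 0.24 and an adjusted p of 1.00 in limma. Its unadjusted p was 0.185 and fell below 0.05 when WT-3 was left out, while that of *Eif4e1b* then rose above it.

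The pattern that stood out was that of the libraries numbered 3. For 41 members (60.3%, against 40.9% of all tested genes), TG-3 and WT-3 both lay outside the range of the other 4 libraries on the same side. In 26 of them (38.2%, against 20.6%) both were lower, and in 15 (22.1%, against 20.3%) both were higher. The size of the shift was ordinary, with a median of 0.173 on the log2 scale without regard to sign, against 0.174 over all tested genes. Its direction was the same in TG and in WT for 60 members (88.2%, against 72.2%). Across the 68 genes, the shift in TG and the shift in WT had a Pearson correlation of 0.885, and of 0.616 across all tested genes, given as a description because genes share libraries and are not independent. The shift was larger than the genotype difference in 57 members (83.8%, against 72.3%). The members were more abundant than most genes (median of 1490 normalized counts, against 488) and had a smaller median SE (0.102, against 0.132). These shares and correlations were not compared with genes of like abundance, and the part of abundance in them was not tested.

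**Figure D3:**
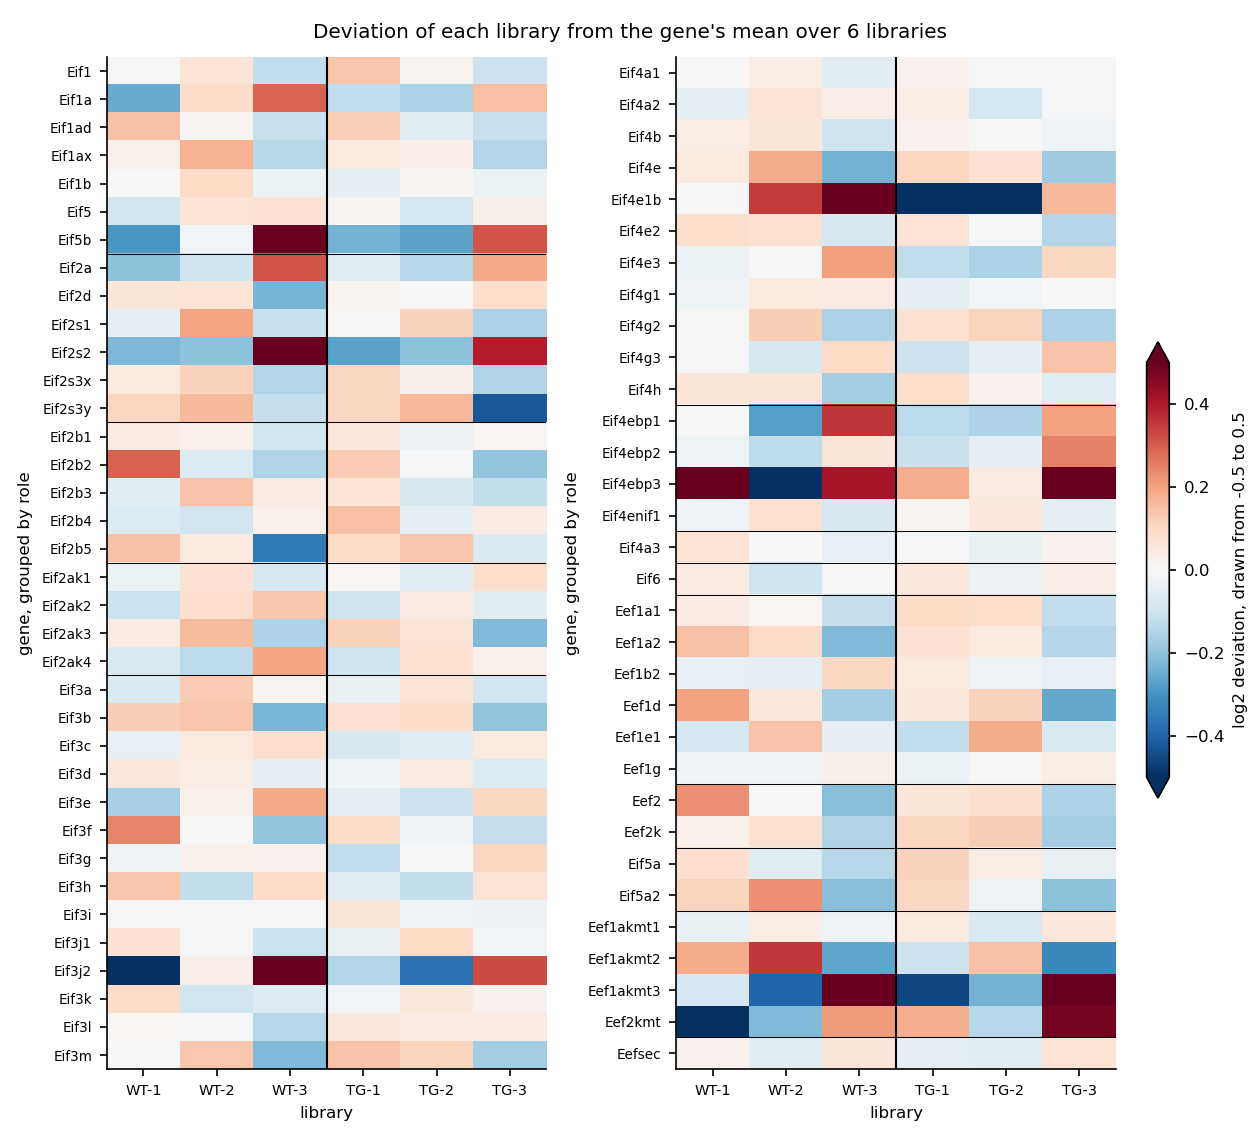
Log2 deviation of each library from the gene's mean over the 6 libraries, for the 68 genes in rows grouped by role and the libraries WT-1 to WT-3 and TG-1 to TG-3 in columns, with colours drawn from -0.5 to 0.5. WT-3 and TG-3 share their colour in most rows, such as blue for *Eef2* and red for *Eif5b*, while the 2 genotypes do not separate.

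Of the members described above, those low in both libraries were the elongation factors *Eef1a1*, *Eef1a2* and *Eef2* with *Eef2k*, *Eif5a2* and *Eef1akmt2*, and the initiation factors *Eif1*, *Eif2s3x*, *Eif2s3y*, *Eif2b2*, *Eif2b5*, *Eif2ak3*, *Eif4e*, *Eif4e2*, *Eif4enif1* and *Eif4g2*. Among the 15 members high in both, named after their values were seen, the largest shift was that of *Eef1akmt3*, at 15.1, 17.7 and 33.7 normalized counts in TG-1 to TG-3 and 19.8, 15.7 and 30.7 in WT-1 to WT-3. It is the rarest member per kb, and *Eif3j2*, *Eif2s2* and *Eif5b* followed. *Eif5b* (ENSMUSG00000026083, chr1:37998010-38055579), the GTPase of subunit joining, was at 2238, 2190 and 3275 normalized counts in TG-1 to TG-3 and at 2154, 2609 and 3711 in WT-1 to WT-3. *Eif2s2* (ENSMUSG00000074656, chr2:154871410-154892935), the beta subunit of eIF2, was at 1534, 1603 and 2426 in TG and at 1579, 1600 and 2624 in WT. In both genes the library numbered 3 rose above the others by nearly the same amount in TG and WT, 0.57 and 0.65 on the log2 scale for *Eif5b* and 0.63 and 0.72 for *Eif2s2*. The other subunits of eIF2 went the opposite way, with *Eif2s1*, the phosphorylated alpha subunit and also named after its values were seen, at 966, 1041 and 862 in TG and 931, 1105 and 891 in WT. *Eif3j2* showed 0.59 and 0.89, against -0.05 and -0.14 for its paralogue *Eif3j1*, and the 2 may share reads. By role, both eEF2 and eEF2K and 3 of the 6 eEF1 genes were below the other libraries, with *Eef1g* above them, and of the 14 eIF3 genes 4 were below and 3 above. Cell type markers moved beside this pattern, to be read against the 20.3% of all tested genes above and 20.6% below. Of 8 astrocyte markers 5 were below the other 4 libraries in both and 1 was above, of 8 microglia markers 5 were below and 0 above, and of 8 excitatory neuron markers 4 were above and 1 below. Endothelial markers had 1 above and 2 below of 8, inhibitory neuron markers 2 and 2 of 8, striatal neuron markers 1 and 2 of 8, and oligodendrocyte and leptomeningeal markers 0 and 0. Of 8 choroid plexus markers, of which 6 passed the filter on low values, 2 were above and 0 below, with sums of 620 in TG-3 and 205 in WT-3 against 135–258. Of 5 blood markers 3 were above, with sums of 10646 and 9643 against 6013–8397. Their part in the pattern was not tested.

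**Figure D4:**
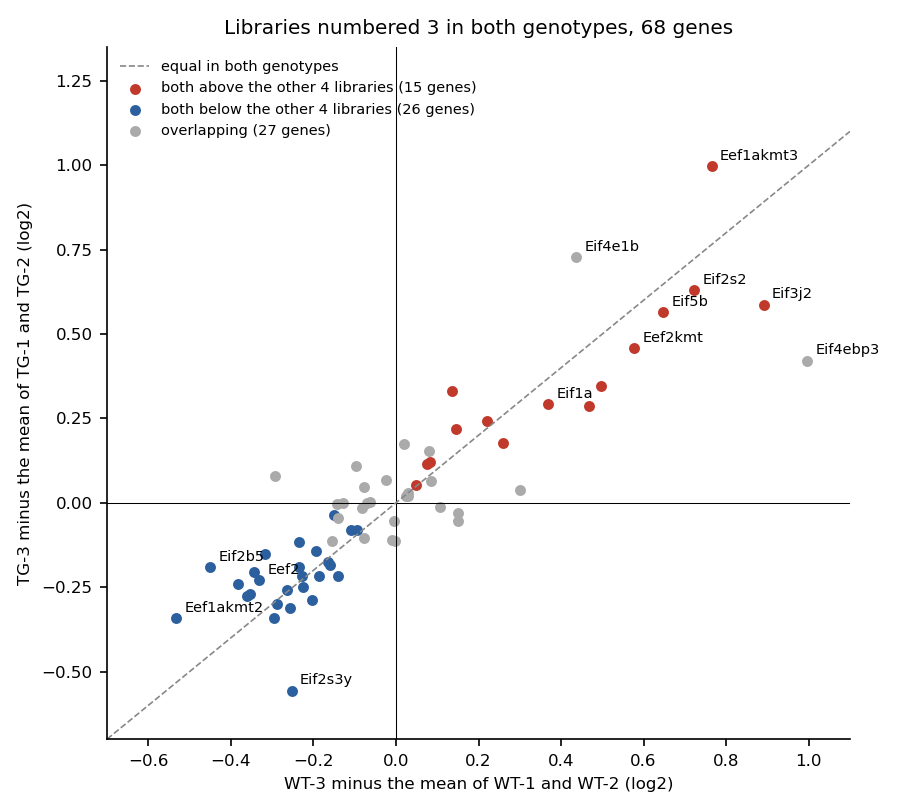
Difference of the library numbered 3 from the mean of the other 2 libraries of its genotype, in WT (horizontal) and TG (vertical), on the log2 scale, 1 point per gene. The 15 red genes lay above and the 26 blue genes below the other 4 libraries in both, and the points follow the dashed line of equal shift.

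Without both libraries numbered 3, 2 libraries per genotype remained, 0 members were called at an adjusted p under 0.05, and 19 members were higher and 49 lower in TG, with a median log2 fold change of -0.021 against -0.0032 over all tested genes. The block, which takes out the shared shift, lowered the median SE of the members from 0.102 to 0.0664 and that of all tested genes from 0.132 to 0.0914. It gave a smaller p for each of the 68 members and for 15109 of the 16714 tested genes, with no member called.

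Some mRNAs of the translation machinery are known to begin with a C followed by a run of pyrimidines, the terminal oligopyrimidine (TOP) start that mTORC1 acts on. RefSeq start sites (GRCm38.p6) were at hand for 52 of the 68 members, with 67 promoters. A C at the start site followed by 4 or more bases that are C or T, read on the strand of the gene, was found for 2 members, *Eif2s3x* and *Eif3f*, in 2.99% of member promoters and 2.51% of all 32851 promoters. Within 5 bases of the start site it was found for 14 members, in 23.9% of member promoters and 18.3% of all. The starts of *Eif2s3x* and *Eif3f*, the matches at the start site, are shown beside those of *Eef1a1*, *Eef1a2* and *Eef2*, the most abundant members per kb of exon. Each line runs from 10 bases before to 16 bases from the start site, and capitals mark the C and its pyrimidine run where there is one.
Eif2s3x (chrX:94212636-94212661, minus strand): gagcattttcCTTTTCTCTCCgagca
Eif3f (chr7:108934405-108934430, plus strand): tctaggctctCTCTCTTTCTCggcaa
Eef1a1 (chr9:78481709-78481734, minus strand): ctccgCCCTCTTCCCgagggtggggg
Eef1a2 (chr2:181157000-181157025, minus strand): cctggtctgcgttctcgctcactggt
Eef2 (chr10:81176621-81176646, plus strand): aaggccgggcgttgacgtcagcggtc
In *Eef1a1* the run begins before the RefSeq start site and passes over it, and *Eef1a2* and *Eef2* have none at these positions. The 5 genes shown were all lower in TG-3 and WT-3 than in the other 4 libraries, but they were picked for a match or for abundance. The mean shift of the libraries numbered 3 had a median of -0.20 on the log2 scale in the 14 members with a run within 5 bases. In the other members with a start site at hand the median was -0.063. The shift was negative in 11 of the 14, against 39 of all 68 members. A match describes the letters alone, and no test was made.

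Pairs of paralogues were compared within each library, where scaling cancels. The log2 ratio per kb of exon of *Eef1a2* to *Eef1a1* was -0.47 ± 0.0093 (SD, n = 3) in TG and -0.41 ± 0.12 in WT, and that of *Eif4a2* to *Eif4a1* was 1.11 ± 0.05 and 1.16 ± 0.07. *Eif5a2* to *Eif5a* gave -3.13 ± 0.08 in TG and -2.96 ± 0.18 in WT, the largest difference of the 8 pairs, with TG below WT at each of the 3 replicate numbers. In the exact two-sided permutation test, whose smallest p is 0.1 with 3 against 3 libraries, the 8 pairs gave p-values from 0.3 to 0.7, and 0.7 for each after adjustment over the 8. The differences between TG and WT ran from -0.17 to 0.04 on the log2 scale. The level of one paralogue over the other again depended on length. With the principal transcript, *Eif4a2* stayed above *Eif4a1* (log2 ratio 1.12, against 1.13) and *Eif5a2*, *Eef1a2*, *Eif1b* and *Eif4ebp1* stayed below *Eif5a*, *Eef1a1*, *Eif1* and *Eif4ebp2*. The ratio of *Eif2s3y* to *Eif2s3x* went from -1.18 to -0.050, that of *Eif4g3* to *Eif4g1* from -0.46 to 0.02, and that of *Eif4e2* to *Eif4e* from -1.21 to 0.57, so that no order is given for these.

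**Figure D5:**
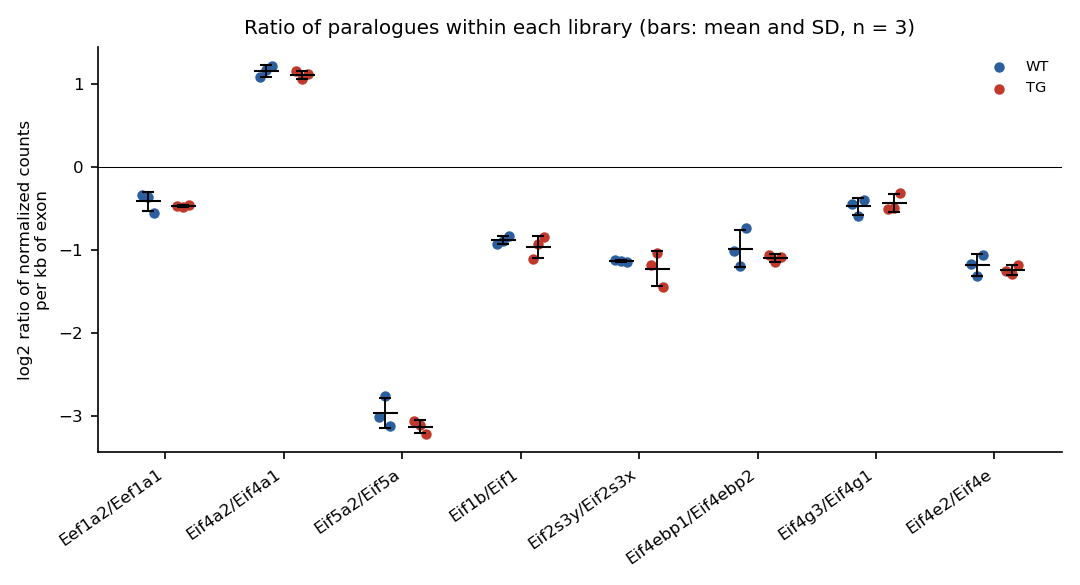
Log2 ratio of normalized counts per kb of exon between 8 pairs of paralogues, 1 point per library, WT in blue and TG in red, with the mean and SD of 3 libraries. The genotypes overlap in all 8 pairs, and *Eif4a2*/*Eif4a1* is the 1 pair above zero.

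Genes that work beside these factors were counted as lists. In 6 lists of partners with 73 tested genes, 0 had an unadjusted p under 0.05 in either direction, with or without the block. The genes named from them were picked for the smallest p of their list. Where such a gene is given as without overlap between TG and WT, this held for 6.02% of all tested genes. Of 14 initiation partners, 8 were higher in TG (median log2 fold change 0.01), and *Mcts1*, which helps to release tRNA after termination and to restart, was at 846, 824 and 792 normalized counts in TG and 847, 972 and 802 in WT. Of 8 termination and recycling genes, 2 were higher (median -0.030). *Trmt112*, the partner of the methyltransferase of the release factor, was at 379, 380 and 438 in TG and 369, 307 and 355 in WT, without overlap, with a log2 fold change of 0.21 ± 0.12 (SE) and an adjusted p of 1.00 in limma.

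Of the 11 tested genes of the eIF2 phosphatase and stress response list, 6 were higher in TG (median 0.0054). *Atf4*, the transcription factor whose translation rises when eIF2 is phosphorylated, was at 3355, 3349 and 3995 normalized counts in TG and 3541, 3657 and 4160 in WT, and its target *Chac1* at 170, 161 and 205 in TG and 190, 160 and 153 in WT. *Atf4* was highest in the library numbered 3 of either genotype and below WT at each number, with a log2 fold change of -0.09 ± 0.10 (SE). *Ddit4*, an inhibitor of mTORC1, gave -0.11 ± 0.13. Of 9 mitochondrial translation factors 3 were higher (median -0.029), and of 9 genes of hypusine and diphthamide synthesis, the modifications of eIF5A and eEF2, 4 were higher (median -0.025). *Dph2*, of the diphthamide pathway, was at 239, 250 and 253 in TG and 260, 276 and 285 in WT, without overlap, at -0.15 ± 0.10 and an adjusted p of 1.00.

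Of 22 genes of the cytosolic aminoacyl-tRNA synthetases and their scaffold, 4 were higher and 18 lower in TG, with a median log2 fold change of -0.042 against -0.0037 over all tested genes. Over all tested genes, 8119 were higher and 8595 lower. Genes share libraries and are not independent, and the split was not tested. *Tars*, the threonine enzyme, was at 794, 787 and 702 normalized counts in TG and 821, 825 and 797 in WT, without overlap. Its log2 fold change was -0.10 ± 0.08 (SE), with an adjusted p of 1.00 in limma. *Vars*, the valine enzyme, gave -0.12 ± 0.10, and *Qars*, the glutamine enzyme, 0.13 ± 0.11, in the opposite direction. Without both libraries numbered 3, *Tars* gave -0.058, *Vars* -0.0076 and *Qars* 0.054.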

How the data were processed

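Values were taken from 1 table of the series. Per the labels and the study's methods, the authors made stranded mRNA libraries, quantified transcripts with Salmon 0.9.1 on GRCm38 with correction for GC content, summed them to genes with tximport and scaled them in DESeq2 1.19.11 under R 3.6.0. The deposited values are this signal, normalized counts that are not whole numbers, so depth was read from their sums and no counting interval was computed. Of the 18254 gene identifiers, 18231 were found in GENCODE M21.

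log2(normalized count + 1) was fitted with limma 3.58.1 in R 4.3.3, with genotype alone and eBayes with a trend, on the 16714 genes averaging 5 or more normalized counts. Two-sided p-values were adjusted over those genes by Benjamini-Hochberg, with 0.05 as the threshold. Fold changes are on this scale and understate those of rare genes. The fits were also run on simulated data with independent libraries. These lacked the shared shift of the libraries numbered 3, so they do not check the fits under it. Levels were divided by exon bases. Salmon's per-transcript lengths were not used here. Other calculations used Python 3.11.15, pandas 2.3.3, numpy 2.4.6 and scipy 1.17.1.

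The members, role groups and lists were chosen with earlier results of these data known. Members were named if their unadjusted p was under 0.05 in the fit with or without the block, if TG and WT did not overlap, if they were among the 2 highest per kb of their role group, or if they belonged to the paralogue pairs, the eIF2 alpha kinases, the eIF4E-binding proteins or were *Eef2k*. *Eif1a*, *Eif1ax*, *Eif2a*, *Eif2d*, *Eif2s1*, *Eif2s2*, *Eif3f*, *Eif3j1*, *Eif3j2*, *Eif3k*, *Eif4e3*, *Eif5b*, *Eef1g*, *Eef1akmt3* and *Eef2kmt* lie outside this rule and were named after their values were seen. From each list, up to 3 genes with the smallest p were named, and *Shank3* as a check. *Gcn1* stands in the table under its older symbol *Gcn1l1* and was not counted in its list.

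Deviations from the genotype mean correlated by 0.30, 0.33 and 0.62 between TG and WT libraries of the same number, and by at most 0.27 otherwise, so the numbers were taken to pair the libraries. This pairing comes from the values and not from the labels. The alternatives tried were no filter, a mean of 50 or more, a pseudocount of 0.1 or 5, upper quartile and quantile scaling, eBayes without a trend or robust, the replicate block, an empirical null (statistics divided by their interquartile range over 1.349), and libraries left out.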

Additional observations from a re-analysis of the deposited data

How the results depend on the processing

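Under all 17 alternatives tried, 0 members were called. Over all genes, 0 were called, 1 under robust eBayes, 1 with the replicate block, 26 under the empirical null, 1 without both libraries numbered 3, and 0 to 1 with each library left out. The paired fit, in which the replicate block was a term, left the members' median log2 fold change at -0.015 and changed no call of a member. Genes at an unadjusted p under 0.05 numbered 336, 833 with the replicate block, 1215 under the empirical null and 219 to 417 with each library left out. Members at an unadjusted p under 0.05 numbered 1, 0 with a mean of 50 or more and 0 under upper quartile scaling, and 0 to 1 with each library left out. With TG-1, TG-2 or WT-2 left out there were 0, and without WT-3 the 1 was *Eef2kmt*. Members without overlap between TG and WT numbered 1, 17 without both libraries numbered 3, where 2 libraries face 2 (25% against 26.1% of all tested genes), and 2 to 10 with 1 library left out (2.94% without WT-2 to 14.7% without WT-3, against 13.7% and 15.8%). The start motif was found in 2 members at the start site and 14 within 5 bases of it. The members' median ran from -0.028 (without WT-3) to 0.011 (without TG-3). For the 36 named members, 611 of 611 alternative fold changes lay within 1 SD of the reported one, a count that was largely fixed in advance. The filters, the block, the empirical null and the eBayes variants leave a fold change as it is. The SD comes from the same libraries, so that leaving out 1 of 3 cannot move a fold change by 1 SD. The count therefore says little about stability, and 10 to 26 of the 68 members changed sign with 1 library left out (26 without WT-3). Of 196 alternative values of role group medians, 3 moved by more than 1 SD, all of eIF3. At 3 libraries per genotype, an exact test cannot go below 0.1. The counting error of the normalized counts could not be computed, and genes that share reads cannot be told apart.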
